A study of Mus musculus with 10 samples.

Results

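Interferon-stimulated genes are the genes that a cell turns on after interferon binds its receptors, and 35 of them, chosen by name from the known targets of type I and type II interferon, were followed in mouse liver. Of the 35 genes, 24 had an array probe set that carries their symbol alone, among 14860 genes measured that way in the whole series. Another 6 (Ifit3, Oas1a, Oas3, Eif2ak2, Igtp and Iigp1) lay only on probe sets that list several genes and were given no value, and 5 (Isg15, Usp18, Herc6, Ifi44 and Xaf1) were not analysed here because no probe set used carried their symbol. The livers came from male Balb/c mice, 8 weeks old when they were obtained. One group of 5 mice was injected with carbon tetrachloride (CCl4), a hepatotoxin that causes fibrosis on repeated dosing, for 6 weeks, and the other 5 mice were given oil, its vehicle, for the same time. RNA of each whole liver was read on an Affymetrix whole-transcript array, 1 array per liver. All levels below are log2 values, so that a difference of 1 is a doubling, and each liver is named by its treatment and replicate number.

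Type I interferons signal through Ifnar1 and Ifnar2, and the kinases Jak1 and Tyk2 then activate Stat2, which works with Irf9 in a complex that binds the interferon-stimulated response element in promoters. Interferon-γ, made mainly by T and NK cells, signals through Ifngr1 and Ifngr2 and acts on promoters through a different element, the gamma-activated site. In liver, hepatocytes, Kupffer cells, endothelium and infiltrating leukocytes all respond to interferon, and the products block viral replication, sense foreign RNA, attack vacuoles that hold pathogens and load peptides on MHC class I.

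The promoters show which of the 2 elements each gene carries by letters, and the stretches below are a selection of 8 from the measured genes, of different role groups. Matches in Ifih1 and Stat2 (response element) and in Ifit2 and Ifi35 (gamma-activated site) are not shown. RefSeq windows on GRCm38.p6, from 250 bases before to 50 bases after a gene's start, were found for 27 of the 35 genes, as 31 windows. None was found for Oas2, Mx1, Mx2, Parp14, Iigp1, Rtp4, Dhx58 and Usp18. The response element was searched on both strands as GAAANNGAAA and the gamma-activated site as TTCNNNGAA, and capitals mark the matches to the response element in the first 6 stretches and to the gamma-activated site in the last 2. Bst2 also holds a gamma-activated site that overlaps the start of its capitals and is not marked. Each run is written 5′ to 3′ on the gene's own strand, where a match on the opposite strand reads as TTTC, 2 bases, TTTC.
Ifit1, plus strand, chr19:34640769-34640828: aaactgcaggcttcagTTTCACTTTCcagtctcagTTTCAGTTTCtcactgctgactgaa
Bst2, minus strand, chr8:71537565-71537624: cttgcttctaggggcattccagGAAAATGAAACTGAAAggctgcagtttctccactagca
Rsad2, minus strand, chr12:26456538-26456597: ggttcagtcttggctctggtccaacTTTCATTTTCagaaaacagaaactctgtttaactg
Gbp2, plus strand, chr3:142620579-142620638: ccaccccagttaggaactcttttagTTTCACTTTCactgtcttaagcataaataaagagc
Gbp3, plus strand, chr3:142559977-142560036: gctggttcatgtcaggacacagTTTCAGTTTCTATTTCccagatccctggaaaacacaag
Irgm1, minus strand, chr11:48871413-48871472: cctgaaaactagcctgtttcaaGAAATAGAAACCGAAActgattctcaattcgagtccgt
Irf1 (gamma-activated site), plus strand, chr11:53769898-53769957: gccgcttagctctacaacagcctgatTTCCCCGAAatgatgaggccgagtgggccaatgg
Psmb8 (gamma-activated site), plus strand, chr17:34198072-34198131: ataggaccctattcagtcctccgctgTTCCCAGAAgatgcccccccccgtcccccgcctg

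Ifit1, Bst2, Gbp3 and Irgm1 each held 2 response-element matches, which overlapped in Bst2, Gbp3 and Irgm1 and stood apart in Ifit1. By letters, 14 of the 27 genes held the response element in at least 1 window, which is 45.2% of their windows, against 3.44% of all 32851 windows in the table. The gamma-activated site was found in 8 of the 27 genes, or 25.8% of their windows, against 8.30% of all windows. Oasl1, Oasl2, Irf7, Irf9, Psmb9, Tap1, Ifi44, Herc6 and Xaf1 had neither run of letters in these windows. Psmb9 and Tap1 start next to each other in opposite directions, and their windows overlap. A match is a run of letters and not a measured binding site.

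The arrays were alike in overall level, with medians between 2.54 and 2.66 and pairwise correlations between 0.959 and 0.990. Liver identity was plain, since the 4 measured hepatocyte markers (Alb, Ttr, Hnf4a and Cyp2e1) averaged between 9.35 and 13.05. Some livers stood apart. CCl4 replicate 2 held the highest of the 10 values for 14.0% of all genes. CCl4 replicate 4 held the highest for 21.8% and the lowest for 15.3% of all genes, and it had the lowest array weight, 0.459. Oil replicate 1 held the lowest for 17.6% of all genes. Because CCl4 replicate 2 was high in the genes described here, their fold changes are also given without it. Leaving that liver out can only lower the fold changes of the 24 genes, since it was the highest for each. Of the 24 genes, 19 averaged above the median probe set, while Ifit2, Oas2, Mx1, Mx2 and Gbp2 lay below it.

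The first question was whether interferon-stimulated genes differ between fibrotic and control liver. Between the groups, none of the 24 genes was called. At an adjusted p under 0.05 in limma, 0 genes passed on the higher side and 0 on the lower side of CCl4 minus oil, where 0.630% of all 23332 probe sets were called higher and 0.0900% lower, and the methods' comparison of the same values also gave 0 after adjustment. At an unadjusted p under 0.05, 3 of the 24 genes passed, Gbp2, Irf7 and Oasl2, all on the higher side, with limma adjusted p of 0.278, 0.352 and 0.360. Over all probe sets 7.03% passed that threshold on the higher side and 4.27% on the lower side. The methods' thresholds, an unadjusted p under 0.05 with a fold above 1.6, were applied to the p of limma. They were met by Irf7 alone on the higher side and by 0 genes on the lower side, against 2.56% and 0.819% of all probe sets. With the methods' t-test the counts were also 1 and 0. The limma count of 1 became 0 when CCl4 replicate 2 was left out, and likewise for replicate 2 or 5 of the oil livers. Without CCl4 replicate 2, Irf7 had an unadjusted p of 0.0106 in limma, and its fold fell below 1.6. The count became 2 when either of CCl4 replicates 1 and 3, or the fourth oil liver, was left out. For no gene did all 5 CCl4 livers lie above all 5 oil livers, which 2.73% of all probe sets did. The median log2 fold change of the 24 genes, CCl4 minus oil, was 0.22, against 0.0084 over all named genes, with 18 values above 0 and 6 below. Without CCl4 replicate 2 that median was 0.02, with 12 above and 12 below.

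What the 24 genes did share was 1 liver. Every one of them had its highest level of the 10 livers in CCl4 replicate 2, which held the highest value for 14.0% of all genes. The genes' mean, taken after subtracting each gene's oil mean, was 1.10 in CCl4 replicate 2 and 0.11, 0.19, -0.24 and 0.01 in CCl4 replicates 1, 3, 4 and 5, against -0.19, -0.10, 0.12, 0.30 and -0.14 in oil replicates 1 to 5. CCl4 replicate 2 was thus the only liver outside the range of the oil livers on the upper side, and CCl4 replicate 4 was just below it. The genes move together, so that 24 of 24 is not 24 separate observations. The count was chosen after the values were seen.

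**Figure D1:**
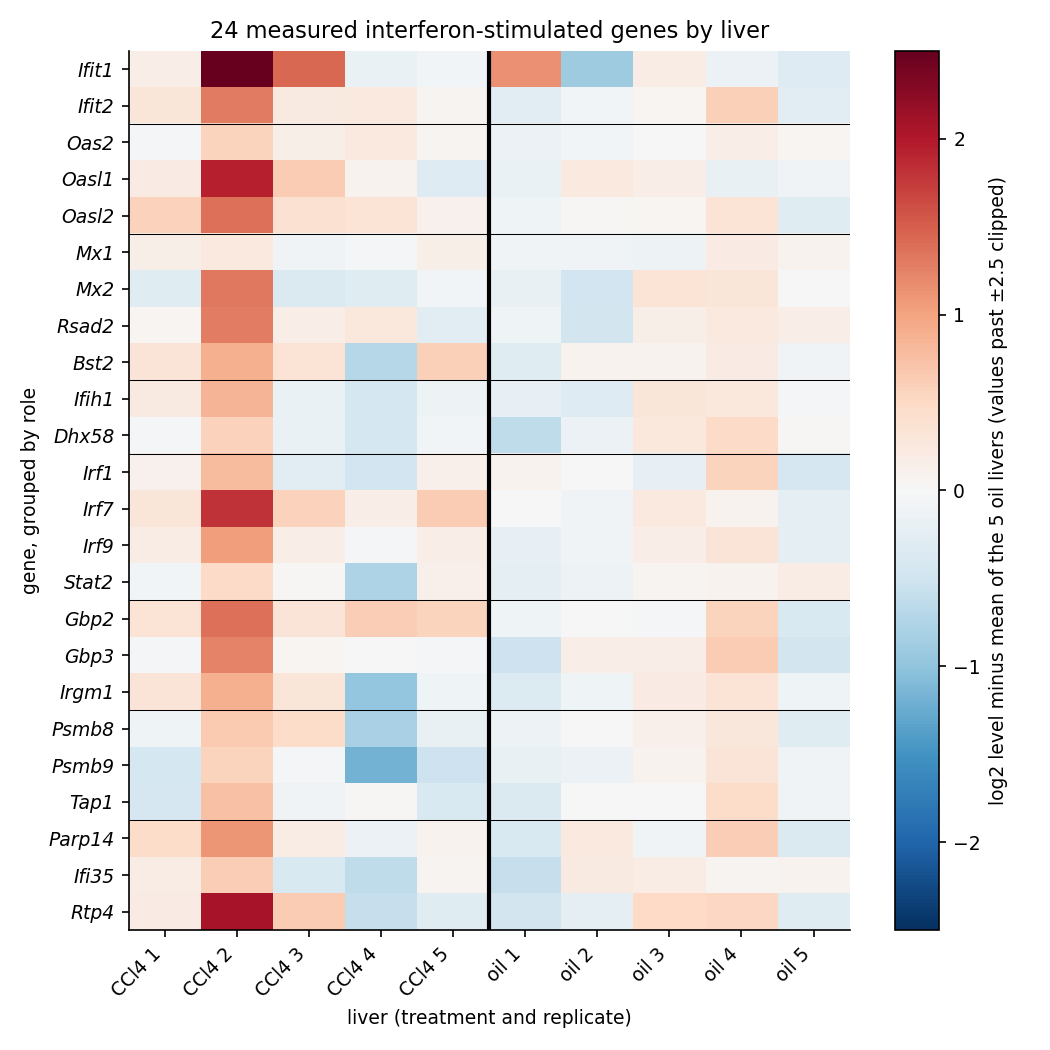
Heat map of the 24 measured genes (rows, grouped by role) in the 10 livers (columns, CCl4 left of oil), coloured by the log2 level minus the mean of the 5 oil livers, red above and blue below. The column of CCl4 replicate 2 is red in all 24 rows. The column of CCl4 replicate 4 holds the lowest value of 9 genes, against 15.3% of all genes.

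The IFIT proteins bind foreign RNA and block its translation, and Ifit1, which recognises RNA that lacks the usual cap methylation, gave the widest range of all. Ifit1 read 2.73, 5.41, 4.0, 2.40 and 2.51 in CCl4 livers, against 3.71, 1.69, 2.75, 2.43 and 2.25 in oil livers. CCl4 replicates 2 and 3 were the highest, yet oil replicate 1 lay above the other 3 CCl4 livers, and the groups overlapped. The mean was 3.41 ± 1.29 in CCl4 and 2.57 ± 0.75 in oil livers (SD, n = 5 each), a log2 fold change of 0.84 ± 0.59 (SE) with a limma adjusted p of 0.669, or 0.34 without CCl4 replicate 2. Its excess in CCl4 replicate 2 over the other 4 CCl4 livers was 2.50, rank 11 of 14860 genes. Ifit2, a partner of Ifit1, read 2.10, 3.10, 2.02, 2.04 and 1.87 in CCl4 livers, against 1.51, 1.74, 1.85, 2.40 and 1.51 in oil livers. Here CCl4 replicate 2 stood alone, 0.70 above the next liver, and oil replicate 4 was second. The log2 fold change of Ifit2 was 0.43 ± 0.25, or 0.21 without that liver.

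Active synthetases of the OAS family make oligoadenylates that activate RNase L, which degrades RNA. Oasl2 read 3.84, 4.63, 3.64, 3.60 and 3.37 in CCl4 livers, against 3.15, 3.29, 3.30, 3.61 and 2.95 in oil livers. Here 3 CCl4 livers lay above every oil liver, CCl4 replicates 4 and 5 lay below oil replicate 4, and the log2 fold change was 0.56 ± 0.22 (limma adjusted p = 0.360). Oasl1, which in mice lowers the translation of Irf7, read 3.70, 5.44, 4.12, 3.58 and 3.17 in CCl4 livers, against 3.33, 3.73, 3.65, 3.31 and 3.41 in oil livers. CCl4 replicate 2 was 1.32 above the next liver and CCl4 replicate 5 was the lowest of the 10, so that the SD was 0.87 in CCl4 and 0.19 in oil livers. The log2 fold change of 0.51 ± 0.36 was 0.15 without CCl4 replicate 2. Oas2 varied least, between 2.33 and 2.93 in CCl4 livers, against 2.23 and 2.53 in oil livers, with a log2 fold change of 0.19 ± 0.12. All 3 measured genes of the family kept a positive value without CCl4 replicate 2, at 0.10 to 0.35.

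Among the genes whose products act directly on viruses, Rsad2, or viperin, makes a nucleotide that stops viral polymerases. Rsad2 read 4.41, 5.64, 4.53, 4.63 and 4.09 in CCl4 livers, against 4.25, 3.90, 4.50, 4.61 and 4.52 in oil livers. CCl4 replicate 2 lay 1.01 above the next liver, while the other 4 CCl4 livers were mixed with the oil livers. Bst2, or tetherin, which holds budding virions on the cell surface, read 7.48, 8.04, 7.51, 6.44 and 7.76 in CCl4 livers, against 6.86, 7.25, 7.25, 7.37 and 7.08 in oil livers. In Bst2, 4 CCl4 livers lay above every oil liver and CCl4 replicate 4 was the lowest of the 10. The log2 fold change was 0.28 ± 0.26 for Bst2 and 0.30 ± 0.26 for Rsad2, with limma adjusted p of 0.775 and 0.758. Without CCl4 replicate 2 they were 0.13 and 0.06, and without CCl4 replicate 4 the value of Bst2 was 0.53 (limma adjusted p = 0.178). Mx2, a dynamin-like GTPase, read 1.81, 3.43, 1.76, 1.82 and 2.05 in CCl4 livers, against 1.93, 1.65, 2.47, 2.42 and 2.13 in oil livers. Apart from CCl4 replicate 2 its CCl4 values were all below 3 of the oil values, and the log2 fold change of 0.05 ± 0.32 became -0.26 without that liver. Mx1, a GTPase that blocks influenza virus and carries a deletion in many inbred strains, lay between 1.22 and 1.58 in every liver, and CCl4 replicate 2 was only 0.04 above the next.

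The cytosolic RNA sensors Ifih1, which binds long double-stranded RNA, and Dhx58, which tunes that response, had group means close to each other. Ifih1 read 6.50, 7.11, 6.11, 5.83 and 6.14 in CCl4 livers, against 6.07, 5.94, 6.58, 6.53 and 6.24 in oil livers. Dhx58 read 3.03, 3.63, 2.89, 2.62 and 2.98 in CCl4 livers, against 2.41, 2.91, 3.32, 3.52 and 3.07 in oil livers. The log2 fold change was 0.07 ± 0.23 for Ifih1 and -0.02 ± 0.23 for Dhx58, or -0.13 and -0.17 without CCl4 replicate 2. In both, CCl4 replicate 2 was highest, CCl4 replicate 4 was the lowest CCl4 liver, and oil replicate 4 was among the 3 highest.

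Of the transcription factors, Irf7, the factor that amplifies type I interferon production, gave the clearest pattern. Irf7 read 5.21, 6.71, 5.48, 5.06 and 5.54 in CCl4 livers, against 4.90, 4.81, 5.14, 4.99 and 4.68 in oil livers. Only CCl4 replicate 4 lay inside the oil range, below oil replicate 3, and the other 4 CCl4 livers lay above every oil liver. The mean was 5.60 ± 0.65 in CCl4 and 4.90 ± 0.17 in oil livers (SD, n = 5 each), a log2 fold change of 0.70 ± 0.27 with a limma adjusted p of 0.352. Without CCl4 replicate 2 it was 0.42, with a limma unadjusted p of 0.0106 and adjusted p of 0.281. Irf9, the DNA-binding subunit of the type I complex, read 6.88, 7.75, 6.86, 6.67 and 6.87 in CCl4 livers, against 6.49, 6.61, 6.87, 7.03 and 6.48 in oil livers. All but 1 of its CCl4 values lay within a span of 0.21 and inside the oil range, and its log2 fold change was 0.31 ± 0.20, or 0.12 without CCl4 replicate 2. Stat2, its partner, gave -0.04 ± 0.20, and Irf1, a factor of the interferon-γ response, gave 0.05 ± 0.25, each with its lowest value in CCl4 replicate 4. Without CCl4 replicate 2 they were -0.17 and -0.14.

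**Figure D2:**
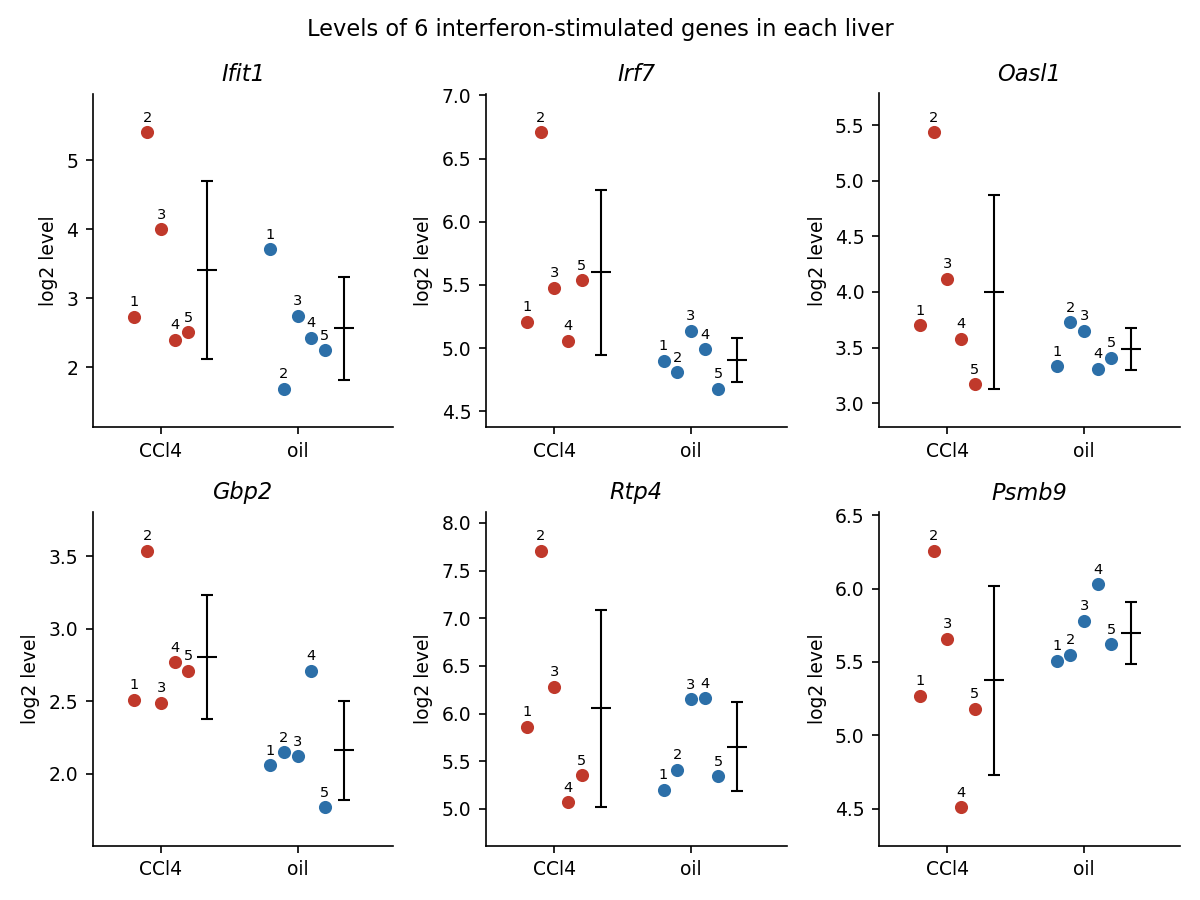
Log2 level of Ifit1, Irf7, Oasl1, Gbp2, Rtp4 and Psmb9 in each liver, CCl4 (red) left of oil (blue), with the replicate number above each point and the mean ± SD of the 5 livers as a bar. CCl4 replicate 2 is the highest point in all 6 panels, and for Irf7 the other 3 CCl4 livers apart from replicate 4 also sit above every oil liver.

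The interferon-inducible GTPases attack the vacuoles in which bacteria and parasites live. Gbp2, a guanylate-binding protein, had the smallest p of the 24 genes and read 2.51, 3.54, 2.49, 2.77 and 2.71 in CCl4 livers, against 2.06, 2.15, 2.12, 2.71 and 1.77 in oil livers. Every CCl4 liver lay above 4 of the 5 oil livers, and oil replicate 4 overlapped them. At 2.48 on average over all livers, Gbp2 lay below the median probe set. The mean was 2.80 ± 0.43 in CCl4 and 2.16 ± 0.34 in oil livers (SD, n = 5 each), and the log2 fold change was 0.64 ± 0.22 (limma adjusted p = 0.278), or 0.46 without CCl4 replicate 2. Gbp3, its neighbour on chromosome 3, read 2.93, 4.22, 3.02, 2.98 and 2.93 in CCl4 livers, against 2.45, 3.14, 3.13, 3.61 and 2.52 in oil livers. The other 4 CCl4 livers spanned 2.93 to 3.02, inside the oil range, and the log2 fold change of 0.25 ± 0.30 was 0.00 without CCl4 replicate 2. Irgm1, which keeps the other immunity-related GTPases inactive on host membranes, read 5.93, 6.48, 5.91, 4.64 and 5.50 in CCl4 livers, against 5.26, 5.50, 5.80, 5.94 and 5.50 in oil livers. It was highest in CCl4 replicate 2 and lowest in CCl4 replicate 4, a range of 1.84 among CCl4 livers, and its log2 fold change was 0.09 ± 0.29, or -0.10 without CCl4 replicate 2.

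Psmb8 and Psmb9 are catalytic subunits of the immunoproteasome, which cuts peptides for MHC class I, and Tap1 is a subunit of the transporter that carries them into the endoplasmic reticulum. Psmb9 read 5.27, 6.26, 5.66, 4.51 and 5.18 in CCl4 livers, against 5.51, 5.55, 5.78, 6.03 and 5.62 in oil livers. It was the member with the most negative log2 fold change, -0.32 ± 0.27 (limma adjusted p = 0.747), and 3 CCl4 livers lay below every oil liver. Tap1, which starts beside Psmb9, read 3.95, 5.10, 4.28, 4.40 and 3.99 in CCl4 livers, against 4.0, 4.38, 4.36, 4.82 and 4.28 in oil livers. Unlike Psmb9, Tap1 was not low in CCl4 replicate 4, where its level minus its oil mean was 0.03, against -1.19 for Psmb9. Psmb8 ranged from 5.71 to 7.18 in CCl4 livers, against 6.23 to 6.81 in oil livers, and its means were equal at 6.53. Without CCl4 replicate 2 all 3 genes were below 0, at -0.17, -0.54 and -0.21 for Psmb8, Psmb9 and Tap1.

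Of the remaining genes, Rtp4, a chaperone of G protein-coupled receptors with antiviral activity, read 5.86, 7.71, 6.28, 5.07 and 5.35 in CCl4 livers, against 5.20, 5.41, 6.15, 6.16 and 5.34 in oil livers. CCl4 replicate 2 was 1.43 above the next liver, the widest such gap of the 24 genes, and its excess over the other 4 CCl4 livers, 2.07, ranked 26 of 14860. The log2 fold change of Rtp4 was 0.40 ± 0.45, and -0.01 without that liver. Parp14, an ADP-ribosyltransferase, read 5.88, 6.53, 5.61, 5.28 and 5.52 in CCl4 livers, against 5.05, 5.67, 5.35, 6.04 and 5.07 in oil livers. It too was highest in CCl4 replicate 2, oil replicate 4 was second, and its log2 fold change was 0.33 ± 0.26, or 0.14 without CCl4 replicate 2. Ifi35, a cytosolic leucine zipper protein, gave -0.03 ± 0.24, or -0.19 without it.

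**Figure D3:**
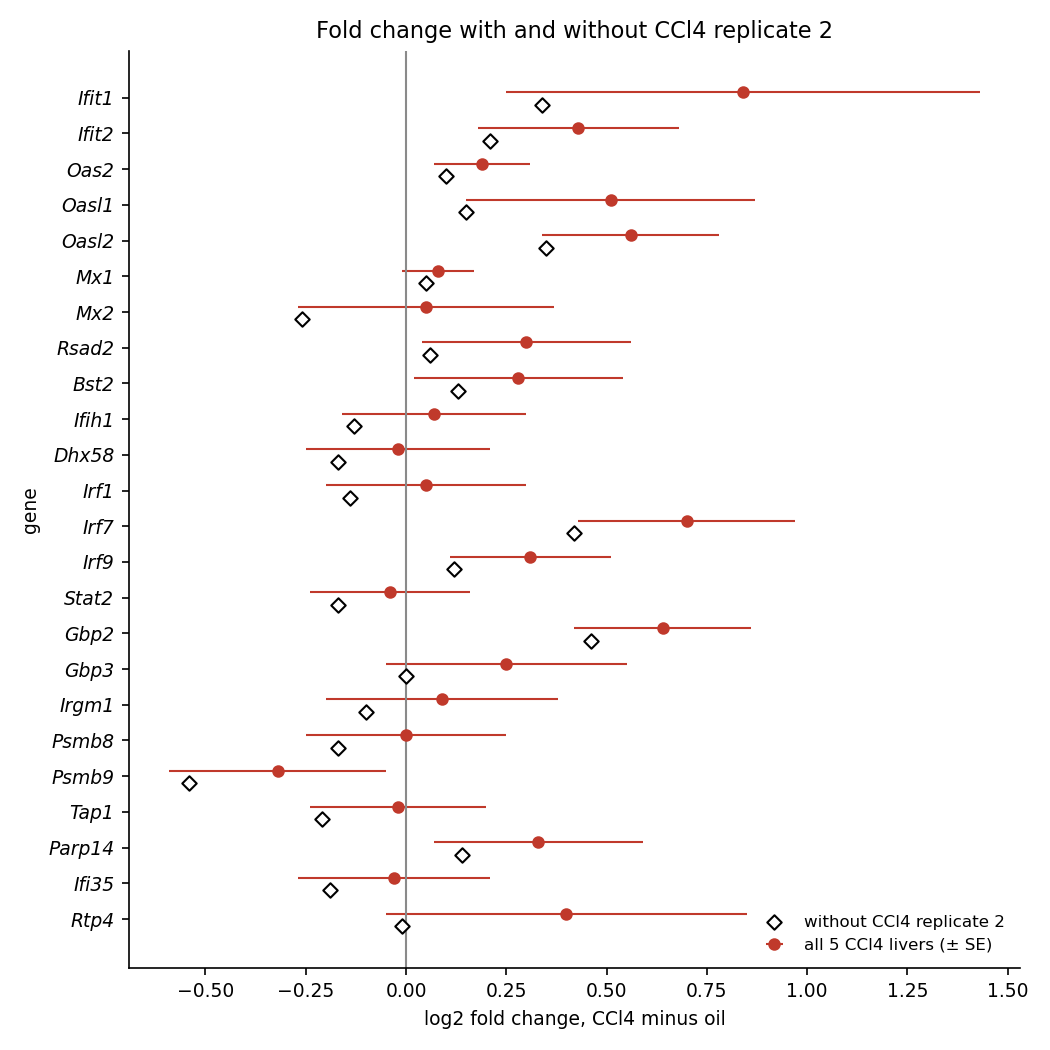
Log2 fold change (CCl4 minus oil) of the 24 genes with all 5 CCl4 livers (red circles, bars are SE) and without CCl4 replicate 2 (open diamonds). Every diamond lies left of its circle, which follows from that liver being the highest for all 24 genes. The median is 0.02 without that liver, against 0.22 with all.

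The genes differed in how far CCl4 replicate 2 stood out. Over the other 4 CCl4 livers the excess had a median of 0.96 in the 24 genes, against 0.02 in all genes, and it was above 1 for 10 of the 24, as for 1.72% of all genes. These 10 were Ifit1 (2.50), Rtp4 (2.07), Oasl1 (1.80), Mx2 (1.57), Irf7 (1.39), Gbp3 (1.26), Rsad2 (1.22), Psmb9 (1.10), Ifit2 (1.10) and Oasl2 (1.02). The smallest excesses were those of Mx1 at 0.19, close to the low end of the array, and Oas2 at 0.45. Ifit1 and Oasl1, which respond chiefly to type I interferon, are among these 10, and so are Gbp3 and Psmb9, which respond strongly to interferon-γ. Other genes of the interferon-γ response lay below 1, with Irgm1 at 0.98, Tap1 at 0.95, Irf1 at 0.93, Gbp2 at 0.92 and Psmb8 at 0.82. So did genes of the type I response, such as Ifih1 at 0.96, Irf9 at 0.93 and Stat2 at 0.64. The part of either interferon in these values was not tested. In CCl4 replicate 4 the picture was uneven, with 15 of the 24 genes below their oil mean, while Gbp2 lay 0.61 and Oasl2 0.34 above it. Over all genes, the median difference from the oil mean in that liver was 0.0179. It held the lowest of the 10 values for 9 of the 24 genes (Bst2, Ifih1, Irf1, Stat2, Irgm1, Psmb8, Psmb9, Ifi35 and Rtp4), against 15.3% of all genes.

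The spread among livers differed in the same way. The median SD of the 24 genes was 0.496 in CCl4 livers and 0.285 in oil livers, against 0.193 and 0.162 over all genes. It was larger in CCl4 than in oil livers for 22 of the 24 genes, and for 59.9% of all genes. Without CCl4 replicate 2 the median SD in CCl4 livers was 0.241, and it was larger than in oil livers for 10 of the 24, and for 58.3% of all genes. The median correlation between pairs of the 24 genes was 0.82 across the 5 CCl4 livers, 0.22 across the 4 without replicate 2, and 0.59 across the 5 oil livers, given as a description since the genes share the same livers. Oil livers were not flat either, since 22 of the 24 genes lay above their oil mean in oil replicate 4 and only 2 in oil replicate 1. Over all genes, the median differences from the oil mean in those livers were 0.033 and -0.0513.

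Upstream of these genes, most interferons were either not measured or low on the array. Of 24 listed ligands and interferon-inducing cytokines, 14 were measured, and Ifnl2 and Ifnl3 were among those without a value. Only 3 of the 14 averaged above the median probe set, and the mean levels ran from 1.14 to 3.72. In limma 0 of the 14 passed, where 0.630% of all probe sets were called higher and 0.0900% lower. Their median log2 fold change was 0.01. Readings this low cannot show whether a ligand changed. Ifng, interferon-γ, read 2.19, 2.09, 2.17, 2.16 and 2.41 in CCl4 livers, against 1.92, 1.91, 2.20, 2.20 and 2.02 in oil livers. All 10 values lay below the array medians. Ifnb1, the early type I interferon of most cell types, averaged 1.97 in CCl4 and 1.93 in oil livers. Ifna14 had a log2 fold change of -0.33 ± 0.29, Il18, which induces Ifng, one of -0.34 ± 0.23, and Il15, a growth factor of NK cells, one of 0.14 ± 0.13.

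Of the 9 receptors and kinases, 0 passed in limma, where 0.630% of all probe sets were called higher and 0.0900% lower. Ifnar1, a chain of the type I receptor, gave -0.02 ± 0.11. Ifngr1, the ligand-binding chain of the interferon-γ receptor, read 6.00, 6.52, 6.01, 6.72 and 5.76 in CCl4 livers, against 4.92, 5.24, 5.93, 6.14 and 5.56 in oil livers. The groups overlapped, and its log2 fold change was 0.64 ± 0.26 (limma adjusted p = 0.369). Ifngr2, its signalling chain, read 6.98, 7.61, 7.17, 7.10 and 6.85 in CCl4 livers, against 6.50, 6.59, 6.78, 6.72 and 6.55 in oil livers. Il10rb, a chain shared by the receptors for interleukin-10 and type III interferon, read 5.96, 6.61, 5.73, 6.45 and 5.55 in CCl4 livers, against 4.59, 4.97, 5.29, 5.30 and 4.94 in oil livers. In both, all 5 CCl4 livers lay above all 5 oil livers, as in 2.73% of all probe sets. Their log2 fold changes were 0.52 ± 0.13 and 1.04 ± 0.22, with limma adjusted p of 0.130 and 0.0700. Il10rb passed without CCl4 replicate 5 (limma adjusted p = 0.0341) and with quantile normalization (0.0295). Jak1 gave 0.23 ± 0.09 (adjusted p = 0.383 in limma).

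Among 11 measured transducers and brakes, 0 passed in limma, where 0.630% of all probe sets were called higher and 0.0900% lower. Irf8, a myeloid transcription factor, gave 0.92 ± 0.21 (limma adjusted p = 0.0923, and 0.0325 without CCl4 replicate 5), Stat3 0.55 ± 0.15, the phosphatase Ptpn6 0.56 ± 0.16, and the brake Socs3 0.76 ± 0.33, or 0.45 without CCl4 replicate 2. Irf3, which starts type I interferon production, gave -0.11 ± 0.08. Of 17 genes of nucleic acid sensing, 1 was called higher and 0 lower in limma, against 0.630% and 0.0900% of all probe sets. Tlr7, the endosomal sensor of single-stranded RNA, read 4.24, 4.95, 4.10, 5.71 and 3.52 in CCl4 livers, against 2.08, 2.37, 2.50, 2.64 and 2.59 in oil livers. All 5 CCl4 livers were above all 5 oil livers, as in 2.73% of all probe sets. The log2 fold change was 2.07 ± 0.35 (limma adjusted p = 0.0311). That call was lost with the replicate number as a block (adjusted p = 0.0912 in limma) and in 7 of the 10 fits that left out 1 liver, where CCl4 replicates 1 and 2 and all 5 oil livers each ended it, the highest adjusted p being 0.0942 in limma. The fold change itself was 2.07 with the block and 1.77 to 2.32 across those 10 fits. Tlr7 was highest in CCl4 replicate 4 and not in replicate 2. Sting1, the adaptor of DNA sensing, gave 1.07 ± 0.24 (limma adjusted p = 0.0808, and 0.0297 without CCl4 replicate 2), Tlr4, the receptor for bacterial lipopolysaccharide, 0.91 ± 0.30, and Adar, an RNA editor, 0.37 ± 0.14.

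A second list of 37 measured interferon-responsive genes, outside the 35, showed the same liver in fewer of its genes. Of these, 0 passed in limma, where 0.630% of all probe sets were called higher and 0.0900% lower. The highest value was in CCl4 replicate 2 for 23 of them, against 14.0% of all genes. The lowest was in CCl4 replicate 4 for 15, against 15.3%. Cxcl10, a chemokine that draws T cells, read 2.77, 4.13, 3.09, 2.54 and 3.16 in CCl4 livers, against 2.73, 2.88, 3.03, 2.59 and 2.79 in oil livers. In 4 of the 37 genes all CCl4 livers lay above all oil livers, against 2.73% of all probe sets, and these had log2 fold changes of 1.90 ± 0.41 for Slfn2, 1.50 ± 0.37 for Ifi27l2a, 1.19 ± 0.27 for Ly6e and 1.04 ± 0.22 for Tor3a, with limma adjusted p of 0.0753, 0.113, 0.0887 and 0.0729. Each was positive without CCl4 replicate 2 too, at 1.59, 1.14, 1.02 and 0.86. Without CCl4 replicate 5, Slfn2 and Tor3a passed, with limma adjusted p of 0.0249 and 0.0248, and with quantile normalization Ly6e did (0.0484).

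In bulk liver, fewer cells of a type and less RNA per cell cannot be told apart, and lists of marker genes were read beside the interferon-stimulated genes. CCl4 replicate 2 was also the highest liver for 6 of 6 acute phase genes and 6 of 7 cell cycle genes, against 14.0% of all genes. It was highest for 4 of 8 macrophage, 4 of 7 stellate cell and myofibroblast, 3 of 6 neutrophil and 2 of 3 B cell markers. Among T and NK cell markers it was highest for 1 of 10. Among markers of Kupffer cells, sinusoidal endothelium, hepatocytes and bile duct cells it was highest for 0. CCl4 replicate 4 was highest for 4 of 5 endothelial, 3 of 8 macrophage and 2 of 6 neutrophil markers, against 21.8% of all genes. The list means in CCl4 replicates 1 to 5, each relative to oil, were 1.83, 3.30, 2.28, 1.63 and 1.68 for acute phase genes and 2.37, 2.88, 1.70, 2.38 and 0.95 for macrophage markers. Summed on the linear scale, macrophage markers ran from 463 to 1880 in CCl4 livers and from 220 to 393 in oil livers, and neutrophil markers from 22.5 to 74.8 in CCl4 and from 17.6 to 19.8 in oil livers. The sums were 12600 to 27600 in CCl4 and 9430 to 10700 in oil livers for acute phase genes, 486 to 1230 in CCl4 and 234 to 436 in oil livers for stellate cells and myofibroblasts, and 29.5 to 61.3 in CCl4 and 27.2 to 30.7 in oil livers for the cell cycle. The 24 interferon-stimulated genes summed to 650 to 1810 in CCl4 livers and to 755 to 1080 in oil livers. Markers of T and NK cells, the usual source of interferon-γ, had list means between -0.11 and 0.01 in CCl4 livers, against -0.09 and 0.09 in oil livers. The 10 markers averaged 1.41 to 2.49, with 0 above the median probe set, so that these means cannot show whether the cells changed. The 6 neutrophil markers, at 1.79 to 2.21 on average, also had 0 above it. Cell cycle genes averaged 1.33 to 2.78, with 2 of 7 above it, and B cell markers 1.46 to 2.98, with 1 of 3. Of 5 measured markers of plasmacytoid dendritic cells, which make type I interferon, Siglech, Ccr9, Tcf4 and Cox6a2 had log2 fold changes of 0.21, 0.09, 0.41 and -0.26, and Ly6d, which other cells also express, one of 4.59 (limma adjusted p = 0.00374). Tcf4 and Ly6d were highest in CCl4 replicate 2. The list summed to 161 to 881 in CCl4 livers and 53.3 to 69.7 in oil livers, and without Ly6d to 47.4 to 61.4 in CCl4 and 41.6 to 59.8 in oil livers. The part of these cell types in the level of CCl4 replicate 2 was not tested.

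**Figure D4:**
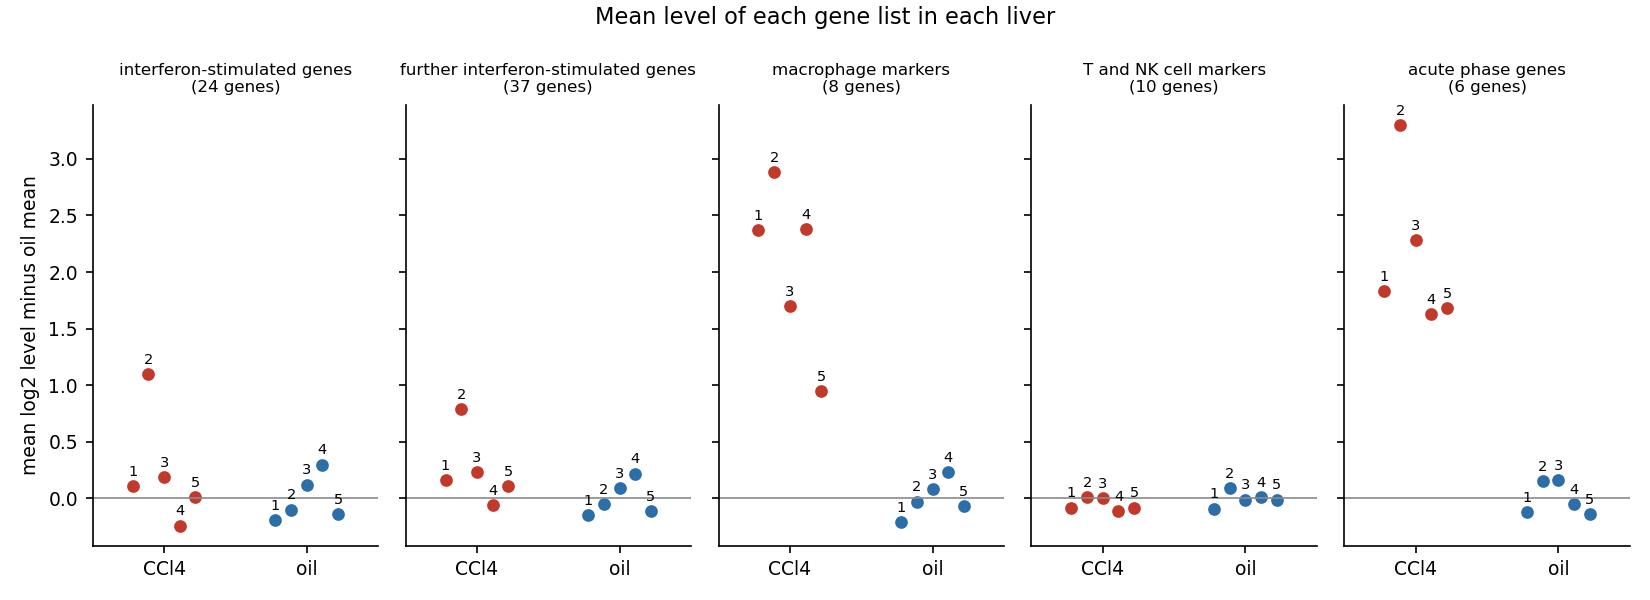
Mean log2 level of 5 gene lists in each liver relative to the mean of the 5 oil livers, CCl4 (red) left of oil (blue), numbered by replicate. CCl4 replicate 2 is highest for the 24 interferon-stimulated genes (1.10), macrophage markers (2.88) and acute phase genes (3.30), while all T and NK cell values lie between -0.11 and 0.09. The T and NK cell markers all averaged below the median probe set.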

How the data were processed

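Total RNA of 10 livers was biotin-labelled and hybridised to Affymetrix whole-transcript arrays, described as Mouse Exon 1.0 ST in the series text and as Mouse Gene ST 1.0 in the methods. The authors deposited 1 value per probe set and array, already summarised, and the background correction and the normalization used are not given in the sources used here. Deposited values were taken as log2, since the largest, 13.40, lies below 16, the log2 limit of a 16-bit scanner, and above 11.09, its natural log. Of 23332 probe sets, 14996 had 1 symbol in the platform annotation, 1019 several and 7317 none, and the probe set with the highest mean stood for a gene. Groups were compared with limma 3.58.1 in R 4.3.3 (lmFit, eBayes), and p-values were adjusted by Benjamini-Hochberg across the whole array, after a check on simulated data. Labels call the samples biological replicates. The number of arrays limits the precision. Correlations of same-numbered deviations were 0.05, -0.04, -0.02, 0.16 and 0.03, and 3 of 10 arrays correlated best with their own number. These values cannot settle whether the replicate numbers pair the livers. All members are accounted for. A rule named members past the threshold, though none was, and per role the 2 with the smallest p and the 1 with the widest CCl4 range. Of each pathway group it named up to 4 with the smallest p, plus Ifnar1, Ifngr1, Ifng, Cxcl10 and Irf3. Members so named have values per liver, except Oas2, which has ranges, and most pathway genes so named have a fold change only. Another gene that this rule lists is not reported here. Ifnb1 was named after its values were seen. The genes and lists were chosen with earlier results of these data known. Alternatives were other normalizations, array weights, probe set filters, the methods' t-test, another prior, the replicate block and leaving out each array.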

Additional observations from a re-analysis of the deposited data

Results flagged for a closer look

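Within a group of 5 livers, a value was marked when its gap to the nearest other value was more than 0.71 of the group's range, which chance does in about 1 in 20 groups. Of the 24 interferon-stimulated genes, 5 had CCl4 replicate 2 far above the other CCl4 livers: Ifit2 at 3.10, Mx2 at 3.43, Irf9 at 7.75, Gbp2 at 3.54 and Gbp3 at 4.22. Among them, Ifit2, Mx2 and Gbp2 averaged below the median probe set. One other member was marked, Ifi35, which was low in oil replicate 1 at 4.57. Ifit1, Rtp4 and Oasl1 had larger excesses in CCl4 replicate 2 but were not marked. Their gap to the next CCl4 liver, replicate 3, was too small a part of the range. Of the pathway genes, Adar was high in CCl4 replicate 2 at 4.45, Ifi27l2a in oil replicate 4 at 3.89, Ifna14 in oil replicate 5 at 3.02 and Tlr4 in oil replicate 4 at 2.74, and Stat3 was low in oil replicate 1 at 6.53.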

How the results depend on the processing

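The counts of interferon-stimulated genes called at an adjusted p under 0.05 in limma were 0 higher and 0 lower in every setting, including each fit that left out 1 liver and the fit with the replicate block, where over all probe sets 30 were higher and 6 lower, against 147 and 21 without it. Those counts over all probe sets were 251 and 47 among brighter probe sets and 12 and 2 with the methods' t-test, lower counts were 39 with quantile normalization and 36 with median centring, and leaving out 1 liver gave 30 to 259 higher and 5 to 40 lower. The count past the methods' fold and p thresholds, with the p of limma, was 1. It was 0 with quantile normalization and with median centring, and ran from 0 to 2 when 1 liver was left out. The median log2 fold change of the genes was 0.22 and ran from 0.02 to 0.31 when 1 liver was left out, the lowest without CCl4 replicate 2, and from 0.16 to 0.25 under the other settings. CCl4 replicate 2 was highest for 24 of 24 genes with quantile normalization and 23 of 24 with median centring, settings chosen after seeing the data. Fold changes near 0 turned in sign: Mx2 was 0.00 with median centring, Irf1 -0.03 with quantile normalization and -0.01 with median centring, and Stat2 0.02 and Psmb8 0.09 with array weights. Leaving out 1 liver gave ranges across 0 of -0.18 to 0.10 for Dhx58, 0.00 to 0.41 for Gbp3, -0.19 to 0.12 for Ifi35, -0.13 to 0.19 for Ifih1, -0.09 to 0.03 for Ifnar1, -0.14 to 0.19 for Irf1, -0.10 to 0.36 for Irgm1, -0.26 to 0.16 for Mx2, -0.17 to 0.20 for Psmb8, -0.01 to 0.65 for Rtp4, -0.17 to 0.14 for Stat2 and -0.21 to 0.09 for Tap1. The call of Tlr7 was also lost with the methods' t-test (Benjamini-Hochberg value 0.124). Il10rb, Ly6e, Slfn2, Sting1 and Tor3a passed when only brighter probe sets were tested, with adjusted p of 0.0381 to 0.0464 in limma, since fewer were tested. The cause of these changes was not tested. With 5 livers a group, a change smaller than the spread between livers could not be detected, and a gene that missed the threshold is not shown to be the same in both groups.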
